A study of Mus musculus with 9 samples.

Results

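The chromatin regions described here lie at Bmp4 and at 8 genes that receive, pass on or restrain its signal: the receptor gene Bmpr1a, the target genes Id1, Id2 and Id3, the inhibitory SMAD genes Smad6 and Smad7, and the antagonist genes Bambi and Nog. A region was taken when it lay in a gene's RefSeq span on mouse build GRCm38, or within 50 kb of it, with that gene as its nearest protein-coding gene. The rule itself used no measured value, but the regions of the count table equal the merged peak lists of these same libraries. The genes were also chosen with earlier results of these data known. The rule found 141 of the 157497 regions of the deposited count table, of which 18 belonged to Bmp4, 13 to Bmpr1a, 9 to Id1, 12 to Id2, 15 to Id3, 36 to Smad6, 26 to Smad7, 8 to Bambi and 4 to Nog. All 141 passed the filter on low counts. A peak of the NanogKO list overlapped 101 of them. The others entered the table only through a group with Esrrb, which favours rises against NanogKO there. Nearness is a rule of position, and which gene a region acts on was not tested.

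BMP4 is a secreted ligand of the TGF-beta superfamily that binds pairs of type I and type II receptor kinases, BMPR1A among them. The active receptors phosphorylate SMAD proteins that enter the nucleus with SMAD4 and switch on target genes, the Id genes being the best known. Smad6 and Smad7 are also targets and encode SMADs that dampen the pathway from within, BAMBI is a membrane pseudoreceptor that lacks a kinase, and Noggin (Nog) binds BMPs outside the cell. In mouse embryonic stem cells, BMP signals together with leukaemia inhibitory factor (LIF) are known for holding cells in self-renewal, and serum is a usual source of BMP activity.

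The assay was ATAC-seq, in which a transposase cuts open chromatin, so that more counts in a region mean a more accessible region. The 9 libraries fall into 3 groups of 3 libraries of mouse embryonic stem cells: NanogKO (cell line label N{delta}), NanogKO:Esrrb and NanogKO:Esrrb:Nanog (both with the cell line label N{delta}:cE:iN). All 3 groups carry the Nanog knockout, all were grown untreated in 10% serum with 1000 U/ml LIF, and all were sorted for PECAM+ PDGFRA- cells. Esrrb and Nanog are transcription factors of the pluripotency network, and the labels do not say how either was supplied, from which promoter, or whether a line is 1 clone. NanogKO differs from both other groups in cell line label as well as in Esrrb, so the line and the factor cannot be told apart in the comparisons with NanogKO, while NanogKO:Esrrb and NanogKO:Esrrb:Nanog share a line label. The titles also give each group a code of its own, 44C6, 44J and 44JN, which the labels do not explain, so a difference of line between the last 2 groups cannot be told apart from that in Nanog. Nothing says that replicates came from separate cultures, so p-values measure only the spread between these libraries.

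The total count per library ranged from 35545030 to 58520948, of which 40120 to 68757 counts (0.0948 to 0.124%) fell in the 141 regions. Levels are given as CPM, counts scaled to a common library total, after TMM scaling, with ± for the SD over the 3 libraries of a group. After a log2 fold change, ± gives a standard error (SE). It was taken as the size of the change divided by the square root of its F statistic. On the second principal component of all regions, NanogKO:Esrrb:Nanog replicate 3 lay at 5.5 while the other 2 libraries of its group lay at 87.6 and 101.4, so counts of calls are also given without it. Gene-end regions of 8 embryonic stem cell markers had 16.7 to 45.2 CPM averaged over the 9 libraries, against a median of 2.91 CPM over all regions. These marker regions moved with the groups: 5 of the 8 were called higher with Esrrb (Pou5f1, Sox2, Zfp42, Dppa5a and Tdgf1), 5 with both factors (Pou5f1, Sox2, Zfp42, Tdgf1 and Fgf4) and Pou5f1 between the groups with Esrrb, and none was called lower. Their summed level was 178 to 202 CPM in NanogKO, 232 to 270.1 CPM with Esrrb and 254 to 299 CPM with both. In bulk samples, fewer cells with an open region and less opening per cell cannot be told apart. Gene-end accessibility was also found at markers of other cell types, from 0.673 CPM at Elf5 to 44.1 CPM at Eomes for trophoblast, from 2.57 CPM at Pdgfra to 80.6 CPM at Sox17 for primitive endoderm, and from 3.31 to 13.2 CPM for fibroblasts, with no counted gene-end region at Gata4, Dab2 and Col3a1. Of these 13 marker regions, Gata6 was called lower with Esrrb, Sox17, Tfap2c and Col1a2 were called lower with both factors, and none was called higher. Summed levels in NanogKO, NanogKO:Esrrb and NanogKO:Esrrb:Nanog were 120.0 to 128, 93.0 to 113 and 101 to 108 CPM for primitive endoderm, 106 to 119.6, 98.4 to 107 and 97.7 to 109 CPM for trophoblast, and 37.3 to 41.8, 35.6 to 38.4 and 33.9 to 42.1 CPM for fibroblasts. The part of these marker shifts in the results was not tested. The Nanog span held 1 counted region, with group means of 1.13, 3.62 and 4.97 CPM in NanogKO, NanogKO:Esrrb and NanogKO:Esrrb:Nanog, and since the labels do not say which part of Nanog is missing, it checks nothing about the genotype.

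RefSeq promoter sequences (GRCm38.p6) were at hand for Bmp4, Id2, Id3, Smad6 and Bmpr1a. The 250 bases before the start of Bmp4 (chr14:46390670-46390919, minus strand) and of Smad6 (chr9:64022060-64022309, minus strand) are shown because a counted region that changed overlaps each. Both are read 5′ to 3′ toward the start, and capitals mark the 88 and 118 bases that belong to the counted region. The start used for Smad6 lies inside its span, which ends at base 64022085, so the last printed bases are inside it too.
Bmp4: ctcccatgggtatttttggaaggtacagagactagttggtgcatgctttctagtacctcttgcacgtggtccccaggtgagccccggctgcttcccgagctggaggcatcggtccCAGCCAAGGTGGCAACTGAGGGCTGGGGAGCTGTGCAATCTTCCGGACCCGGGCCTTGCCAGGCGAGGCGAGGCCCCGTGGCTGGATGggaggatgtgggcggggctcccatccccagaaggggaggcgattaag
Smad6: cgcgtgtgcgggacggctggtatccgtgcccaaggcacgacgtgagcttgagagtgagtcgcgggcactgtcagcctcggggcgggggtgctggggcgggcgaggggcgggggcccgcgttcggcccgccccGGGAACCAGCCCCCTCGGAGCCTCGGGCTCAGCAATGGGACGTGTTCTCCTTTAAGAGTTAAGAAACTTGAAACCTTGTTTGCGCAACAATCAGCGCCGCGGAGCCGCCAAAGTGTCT
The same stretch of Id2 (chr12:25096093-25096342, minus strand) and of Id3 (chr4:136143572-136143821, plus strand) is shown because each holds a short SMAD motif, in capitals, inside a region that passed the test in no comparison.
Id2: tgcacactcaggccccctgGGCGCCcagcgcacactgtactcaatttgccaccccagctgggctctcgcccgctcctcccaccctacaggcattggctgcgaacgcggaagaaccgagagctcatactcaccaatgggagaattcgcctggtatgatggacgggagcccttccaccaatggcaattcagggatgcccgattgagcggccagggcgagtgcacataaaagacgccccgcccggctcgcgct
Id3: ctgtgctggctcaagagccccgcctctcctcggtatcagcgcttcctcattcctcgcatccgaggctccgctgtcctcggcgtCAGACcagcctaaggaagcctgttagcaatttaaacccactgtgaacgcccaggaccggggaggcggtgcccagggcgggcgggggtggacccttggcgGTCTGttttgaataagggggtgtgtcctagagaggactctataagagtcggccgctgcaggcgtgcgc
The motifs searched on both strands of the 300-base promoter windows were the ESRRB core AAGGTCA, the SMAD1/5 site GGCGCC and the SMAD4 site GTCTG, and no 2 matches overlapped. GGCGCC began at base -231 of Id2 and at base -198 of Bmpr1a, and GTCTG at bases -167 (on the opposite strand) and -68 of Id3, counting the base before the start as -1. None of the 3 motifs lay in the Bmp4 or Smad6 window. Of 32851 mouse promoter windows of this length, 4.72% held AAGGTCA, 11.9% GGCGCC and 49.6% GTCTG, so these matches are common and describe letters only.

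With Esrrb present, 49 of the 141 regions were higher and 22 lower than in NanogKO (adjusted p below 0.05, edgeR quasi-likelihood test). Over all 157439 regions tested, 37.0% were called in that comparison, 20.0% higher and 17.0% lower. Rises were thus more frequent among these regions than among regions at large, and falls about as frequent. Because the genes were chosen with earlier results known, this difference describes the set and tests nothing. The 141 regions also had more counts, with a median of 4.48 CPM against 2.91 CPM over all tested regions. Such regions pass the test more easily, and the part of that in the difference was not tested. With both factors, 67 were higher and 19 lower than in NanogKO, against 49.3% called over all regions, 24.9% higher and 24.4% lower. Between NanogKO:Esrrb:Nanog and NanogKO:Esrrb, 49 were higher and 4 lower, against 24.6% called over all regions, 12.6% higher and 12.0% lower. The median log2 fold changes of the 141 regions were 0.11, 0.39 and 0.30 in these 3 comparisons, with medians of -0.01 over all regions in each. The 2 comparisons with NanogKO share its 3 libraries, and those that involve NanogKO:Esrrb or NanogKO:Esrrb:Nanog share theirs, so they are not independent of each other.

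The rises were not spread evenly over the 9 genes. Bmp4 and Smad7 held most of the large ones, and the called changes of Bmpr1a against NanogKO were all falls. Smad6 and Id2 had changes in both directions, as did regions at large. Rises of more than 2-fold numbered 21 with Esrrb, 43 with both factors and 13 between those groups, and falls of that size 5, 5 and 1, where 14.4%, 22.4% and 5.52% of all regions passed the test with such a change in either direction. The 3 libraries of the groups compared did not overlap in CPM at 83, 96 and 67 of the 141 regions, against 51.9%, 54.5% and 37.7% of all regions. Without NanogKO:Esrrb:Nanog replicate 3, 71 regions were higher and 16 lower with both factors than in NanogKO, and 54 were higher and 7 lower than with Esrrb alone. The 4 lower regions of that last comparison became 2 without NanogKO:Esrrb replicate 3 or without NanogKO:Esrrb:Nanog replicate 1.

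**Figure D1:**
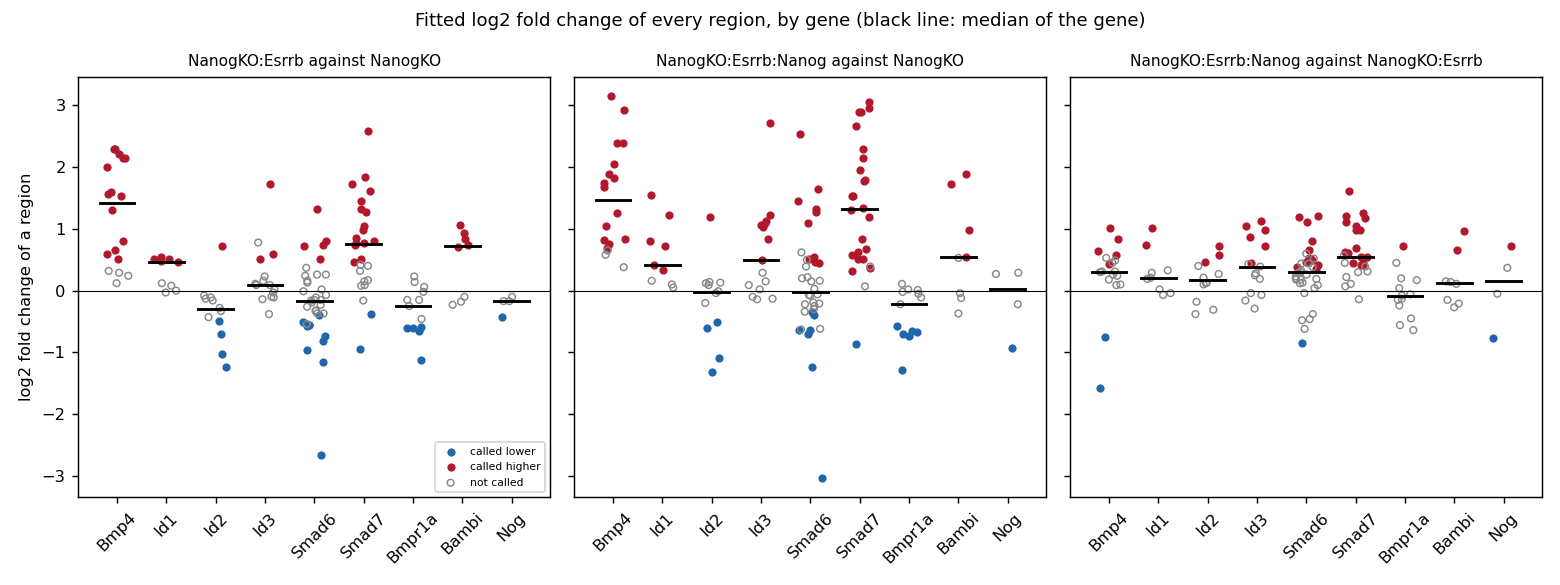
Fitted log2 fold change (y axis) of each of the 141 regions, by gene (x axis), in the 3 comparisons. Red points were called higher, blue points lower, open points were not called, and the black line is the gene's median: Bmp4 has medians of 1.41 and 1.47 against NanogKO, and Smad7 0.76 and 1.32.

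Bmp4 encodes the ligand itself, and its surroundings were more accessible in both groups with Esrrb. Of its 18 regions, 14 rose with Esrrb and 15 with both factors relative to NanogKO, 10 and 11 of them by more than 2-fold. Only 6 of the 18 overlapped a peak of the NanogKO list. The others entered the count table through a group with Esrrb, so their rises against NanogKO, and that of the sum, are partly built in. Summed over the 18 regions, Bmp4 had 34.1, 33.5 and 35.7 CPM in NanogKO, 65.9, 77.1 and 62.3 for NanogKO:Esrrb and 82.4, 87.1 and 84.9 for NanogKO:Esrrb:Nanog. Every library with Esrrb lay above every NanogKO library, and the group with both factors above the group with Esrrb alone. The log2 fold change of the sum was 0.99 ± 0.07 (SE) with Esrrb (edgeR adjusted p = 1.8e-08), 1.30 ± 0.08 with both (adjusted p = 3.3e-10) and 0.31 ± 0.07 between those groups (adjusted p = 0.0068). Of the sums of all 19083 genes with regions, 33.7%, 47.9% and 20.4% were called in these comparisons.

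The Bmp4 region with the smallest p over the 3 groups lay 1.00 kb upstream of the gene, at chr14:46391671-46392109. It had 2.10, 2.22 and 1.84 CPM in NanogKO, 9.82, 11.9 and 8.42 for NanogKO:Esrrb and 14.9, 16.0 and 15.9 for NanogKO:Esrrb:Nanog. The 3 groups were fully separated, in that order. It was 4.88-fold higher with Esrrb (log2 2.29 ± 0.15, edgeR adjusted p = 1.7e-11), 7.59-fold higher with both factors (2.92 ± 0.15, adjusted p = 8.1e-14) and 1.55-fold higher with both than with Esrrb alone (0.64 ± 0.14, adjusted p = 0.0014). No peak was listed there for NanogKO, while the NanogKO:Esrrb list had one.

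The counted region within the 250 bases printed above, chr14:46390717-46390804, had 0.634, 0.588 and 0.770 CPM in NanogKO, 2.19, 2.26 and 1.48 for NanogKO:Esrrb and 2.65, 3.34 and 2.37 for NanogKO:Esrrb:Nanog. All libraries with Esrrb again lay above all NanogKO libraries. This region, described for its place and not by the naming rule, rose by 1.57 ± 0.25 on the log2 scale with Esrrb (edgeR adjusted p = 1.4e-05) and by 2.06 ± 0.25 with both factors (adjusted p = 1e-07). Between those groups the difference was 0.49 ± 0.22 (adjusted p = 0.1), and 0.60 without NanogKO:Esrrb:Nanog replicate 3 (adjusted p = 0.049). The gene-end region with most counts, chr14:46390100-46390582 inside the gene beside its start, rose less: it had 3.73 ± 0.412, 6.50 ± 0.473 and 7.68 ± 0.898 CPM, or log2 fold changes of 0.80 ± 0.15 with Esrrb (adjusted p = 0.00013) and 1.04 ± 0.15 with both (adjusted p = 2.3e-06).

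Farther upstream, the largest rises of the gene were at chr14:46400064-46400253, 9.39 kb from the start. This region had 0.146, 0.441 and 0.487 CPM in NanogKO, 1.39, 2.31 and 1.76 for NanogKO:Esrrb and 2.90, 4.22 and 2.80 for NanogKO:Esrrb:Nanog, without overlap between groups. The changes were 4.93-fold with Esrrb (log2 2.30 ± 0.31, edgeR adjusted p = 1.4e-06) and 8.86-fold with both factors (3.15 ± 0.31, adjusted p = 2.7e-09). Its step from Esrrb alone to both, 0.84 ± 0.25 (adjusted p = 0.016), missed the threshold without NanogKO:Esrrb replicate 1 (0.69), NanogKO:Esrrb replicate 3 (0.82) or NanogKO:Esrrb:Nanog replicate 2 (0.64). Beside the regions taken by the naming rule, a few were chosen after their values were seen, because they lie close by or differ in pattern. Regions at 20.1 and 21.9 kb upstream went from 0.871 ± 0.482 and 0.731 ± 0.0218 CPM in NanogKO to 3.97 ± 0.735 and 3.25 ± 0.893 CPM with Esrrb, and were called higher there and with both factors. In contrast, chr14:46418444-46418931 at 27.8 kb had 5.30 ± 0.365 CPM in NanogKO, 6.27 ± 1.52 CPM with Esrrb (adjusted p = 0.26) and 9.44 ± 1.47 CPM with both factors (adjusted p = 0.00014).

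Below the gene, on its 3′ side, the responses were of several kinds. At chr14:46380620-46380768, 2.76 kb away, the libraries had 0.512, 0.790 and 0.750 CPM in NanogKO, 1.23, 1.04 and 1.03 for NanogKO:Esrrb and 1.95, 2.61 and 2.13 for NanogKO:Esrrb:Nanog. Its step from Esrrb alone to both factors was the gene's largest, 1.01 ± 0.23 (edgeR adjusted p = 0.0028). Its rise with Esrrb alone, 0.66 ± 0.26 (adjusted p = 0.043), missed the threshold without any single library of the 2 groups (0.51 to 0.78) and on library totals without scaling factors (0.67, adjusted p = 0.051). At chr14:46357246-46357400, 26.1 kb away, counts were few, with 4, 10 and 1 counts in NanogKO, 27, 30 and 21 counts for NanogKO:Esrrb and 4, 4 and 14 counts in NanogKO:Esrrb:Nanog. All 3 libraries with Esrrb alone were the highest. The region rose with Esrrb by 2.15 ± 0.49 (adjusted p = 0.00092) and was lower with both factors than with Esrrb alone by -1.58 ± 0.45 (adjusted p = 0.013), which became -1.27 (adjusted p = 0.069) without NanogKO:Esrrb:Nanog replicate 1. The most distant region, chr14:46333471-46333782 at 49.7 kb, had the same order, with 0.480 ± 0.0554, 1.93 ± 0.135 and 1.15 ± 0.120 CPM, and it was called in all 3 comparisons.

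Over the 18 Bmp4 regions, the group means rose from NanogKO to NanogKO:Esrrb to NanogKO:Esrrb:Nanog in 16, and 2 were highest with Esrrb alone. How often all regions show these orders of means was not computed. Between the 2 groups with Esrrb, 5 regions were called higher and 2 lower. Those counts depended on single libraries: 3 were higher without NanogKO:Esrrb replicate 1, NanogKO:Esrrb replicate 3 or NanogKO:Esrrb:Nanog replicate 2, and 1 was lower without NanogKO:Esrrb replicate 2, NanogKO:Esrrb replicate 3 or NanogKO:Esrrb:Nanog replicate 1. Another 2 of the 18, at chr14:46363230-46363491 on the 3′ side and at chr14:46385795-46385868 inside the gene, passed the test in no comparison.

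**Figure D2:**
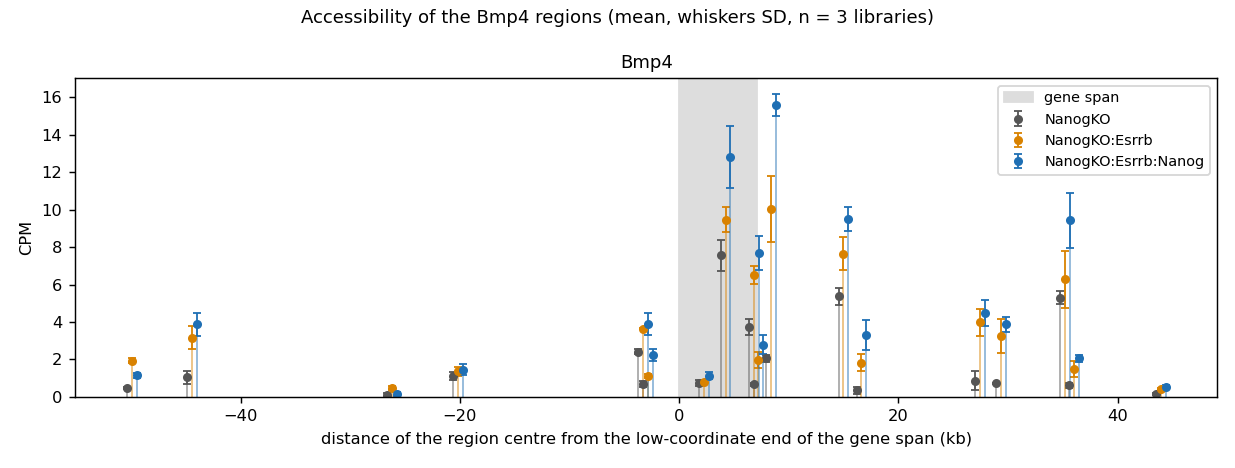
Mean CPM (y axis, whiskers SD, n = 3 libraries) of the 18 Bmp4 regions by distance in kb from the low-coordinate end of the gene (x axis), with the 3 groups drawn side by side and the gene in grey. The region 1.00 kb above the gene's high end, the end where transcription starts, goes from 2.06 CPM in NanogKO to 10.0 CPM with Esrrb and 15.6 CPM with both factors.

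Bmpr1a encodes a type I receptor for BMP4, and its chromatin changed little and downward. Of its 13 regions, 5 fell with Esrrb and 6 with both factors. Those are 38.5% and 46.2%, against 17.0% and 24.4% called lower over all regions. Summed, it had 60.4, 64.3 and 60.0 CPM in NanogKO, 51.1, 49.2 and 55.4 for NanogKO:Esrrb and 51.2, 52.6 and 47.3 for NanogKO:Esrrb:Nanog. The groups with Esrrb lay below NanogKO without overlap and overlapped each other. The sum changed by -0.25 ± 0.07 with Esrrb (edgeR adjusted p = 0.0087), which became -0.21 (adjusted p = 0.054) without NanogKO replicate 2 or NanogKO:Esrrb replicate 2, and by -0.29 ± 0.07 with both factors (adjusted p = 0.0018). Between the 2 groups with Esrrb the sum differed by -0.04 ± 0.07 (adjusted p = 0.67).

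The falls were inside the gene and away from its start. At chr14:34460002-34460430, 42906 bases from the nearer gene end, the libraries had 6.44, 7.13 and 8.15 CPM in NanogKO, 5.03, 4.69 and 4.68 for NanogKO:Esrrb and 4.40, 3.93 and 4.62 for NanogKO:Esrrb:Nanog. Both groups with Esrrb were lower than NanogKO, by -0.59 ± 0.15 (edgeR adjusted p = 0.0022) and -0.74 ± 0.15 (adjusted p = 0.00018). The neighbouring region chr14:34459520-34459698 had the largest fall with Esrrb, from 2.31 ± 0.401 to 1.06 ± 0.0726 CPM (-1.12 ± 0.23, adjusted p = 0.00033), and stood at 1.48 ± 0.344 CPM with both factors (-0.66 ± 0.23, adjusted p = 0.017). That second fall missed the threshold without NanogKO replicate 3 (-0.51), NanogKO:Esrrb:Nanog replicate 1 (-0.58) or replicate 3 (-0.57). The largest fall with both factors, at chr14:34454287-34454607, was from 2.09 ± 0.404 to 0.851 ± 0.225 CPM (-1.29 ± 0.26, adjusted p = 0.00015).

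At the start of Bmpr1a the levels did not pass the test in any comparison. The start used for the promoter sequence lies inside the gene span, which ends at base 34503336. The 250 bases before it (chr14:34502547-34502796) are thus also inside the span. The gene-end region chr14:34502611-34503441, which holds 186 of the 250 bases before the start, had 17.4, 15.8 and 15.4 CPM in NanogKO, 15.2, 12.4 and 16.2 for NanogKO:Esrrb and 19.8, 16.5 and 13.1 for NanogKO:Esrrb:Nanog, with all 3 groups overlapping. Only 1 of the 13 regions, chr14:34486255-34486424, rose between the 2 groups with Esrrb, from 1.12 ± 0.0886 to 1.84 ± 0.209 CPM (0.72 ± 0.22, edgeR adjusted p = 0.021). That call was lost without NanogKO:Esrrb replicate 2 (0.66), NanogKO:Esrrb replicate 3 (0.71) or NanogKO:Esrrb:Nanog replicate 2 (0.63), and on library totals (0.62). The 5 falls with Esrrb became 2 without NanogKO replicate 2 and 3 without NanogKO:Esrrb replicate 1, and the 6 falls with both factors became 3 without NanogKO:Esrrb:Nanog replicate 3. On library totals, 3 regions were lower with both factors than with Esrrb alone.

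The Id genes encode helix-loop-helix proteins that bind and block DNA-binding partners of their own class. Id1 had rises on both sides, while its gene-end region with most counts was not called. Of its 9 regions, 5 rose with Esrrb and 6 with both factors, and 2 were higher with both than with Esrrb alone. The 5 became 3 without NanogKO replicate 2, and the 2 became 4 without NanogKO:Esrrb:Nanog replicate 3. Summed, Id1 had 88.8, 92.8 and 95.7 CPM in NanogKO, 114, 122 and 107 for NanogKO:Esrrb and 132, 129 and 118 for NanogKO:Esrrb:Nanog. NanogKO lay apart from both other groups, which overlapped each other, and the sum rose by 0.31 ± 0.06 with Esrrb (edgeR adjusted p = 0.001) and 0.45 ± 0.06 with both (adjusted p = 1.2e-05). The remaining step, 0.15 ± 0.06 (adjusted p = 0.11), was 0.20 without NanogKO:Esrrb:Nanog replicate 3 (adjusted p = 0.025).

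One region, chr2:152727024-152727305, held the largest rise of Id1 in all 3 comparisons. It lies 8.95 kb below the gene and had 4.73, 3.77 and 4.80 CPM in NanogKO, 6.84, 7.0 and 5.41 for NanogKO:Esrrb and 14.7, 13.4 and 10.8 for NanogKO:Esrrb:Nanog. The 3 groups did not overlap, and the larger step came with both factors: 0.54 ± 0.16 with Esrrb (edgeR adjusted p = 0.0077, and 0.43 with adjusted p = 0.065 without NanogKO replicate 2), 1.55 ± 0.15 with both (adjusted p = 4.4e-09) and 1.01 ± 0.15 between them (adjusted p = 3.2e-05). The region across the gene itself, chr2:152736115-152736983, had 20.1 ± 1.97, 21.8 ± 1.78 and 20.7 ± 2.22 CPM, overlapping in all comparisons. A neighbour 0.949 kb below the span, chr2:152735133-152735302, rose nonetheless, from 5.23 ± 0.560 to 7.34 ± 1.20 and 12.3 ± 3.12 CPM.

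Id2 moved in both directions, as did regions at large. Of its 12 regions, 1 rose and 4 fell with Esrrb, 1 rose and 4 fell with both factors, and 3 were higher with both than with Esrrb alone (5 without NanogKO:Esrrb:Nanog replicate 3). Without that library, 2 rose and 3 fell with both factors. Summed, Id2 had 115, 119 and 118 CPM in NanogKO, 108, 104 and 111 for NanogKO:Esrrb and 123, 128 and 119.5 for NanogKO:Esrrb:Nanog, so the Esrrb group was the lowest, without overlap. The sum differed by -0.13 ± 0.06 with Esrrb (edgeR adjusted p = 0.073, 0.048 with the replicate number as a block, and 0.028 on library totals) and by 0.20 ± 0.06 between the 2 groups with Esrrb (adjusted p = 0.016). The latter missed the threshold without NanogKO:Esrrb replicate 1 (0.20, adjusted p = 0.053), NanogKO:Esrrb replicate 2 (0.18) or NanogKO:Esrrb:Nanog replicate 2 (0.18).

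The single rising Id2 region, chr12:25083369-25084319, lies 9.48 kb downstream of the gene. It had 10.5, 9.20 and 10.6 CPM in NanogKO, 16.9, 16.9 and 16.4 for NanogKO:Esrrb and 21.3, 23.9 and 23.7 for NanogKO:Esrrb:Nanog, with the groups fully separated. It rose by 0.73 ± 0.12 with Esrrb (edgeR adjusted p = 1.4e-05), 1.19 ± 0.12 with both (adjusted p = 3.1e-09) and 0.46 ± 0.11 between them (adjusted p = 0.0047). The falls lay upstream. At 12.5 kb, chr12:25108555-25109196 had 5.39, 5.53 and 5.84 CPM in NanogKO, 2.23, 2.56 and 2.31 for NanogKO:Esrrb and 3.84, 3.49 and 4.36 for NanogKO:Esrrb:Nanog, lowest with Esrrb alone and in between with both, and all 3 differences were called (-1.24 ± 0.16, -0.51 ± 0.16 and 0.72 ± 0.17). At 45.3 kb, chr12:25141401-25141871 was at 3.00 ± 0.300, 1.48 ± 0.216 and 1.20 ± 0.127 CPM, low in both groups with Esrrb (-1.02 ± 0.21 and -1.32 ± 0.21). The start of Id2, whose upstream bases are printed above, had 27.0 ± 0.199, 24.2 ± 1.89 and 26.3 ± 2.41 CPM and was not called.

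Id3 changed mainly when both factors were present. Of its 15 regions, 3 rose with Esrrb and 8 with both, and 6 were higher with both than with Esrrb alone. The 3 became 1 without NanogKO replicate 1 or 2, or without NanogKO:Esrrb replicate 1 or 2. Without NanogKO:Esrrb:Nanog replicate 3, 7 regions rose with both factors and 7 were higher with both than with Esrrb alone. Summed, Id3 had 95.3, 91.2 and 92.2 CPM in NanogKO, 103, 102 and 95.3 for NanogKO:Esrrb and 149.7, 138 and 129 for NanogKO:Esrrb:Nanog. The first 2 groups touched and the third lay above both: the sum changed by 0.11 ± 0.06 with Esrrb (edgeR adjusted p = 0.19), 0.58 ± 0.06 with both (adjusted p = 4.3e-07) and 0.47 ± 0.06 between them (adjusted p = 0.0001).

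Downstream of Id3, 3 regions between 1.29 and 3.01 kb from the gene rose with both factors and were not called with Esrrb alone. The largest of these steps was at chr4:136147790-136148080, which had 8.63, 7.02 and 7.79 CPM in NanogKO, 9.48, 8.04 and 7.39 for NanogKO:Esrrb and 22.9, 20.8 and 11.0 for NanogKO:Esrrb:Nanog. Replicate 3 of the last group was the lowest of its group but above all other libraries, and the step from Esrrb alone was 1.13 ± 0.18 (edgeR adjusted p = 8e-05). At chr4:136106805-136107152, 36.7 kb upstream, the same replicate was again the lowest of its group: the region had 0.634, 0.716 and 0.568 CPM in NanogKO, 2.25, 2.11 and 2.02 for NanogKO:Esrrb and 5.14, 4.78 and 2.82 for NanogKO:Esrrb:Nanog. This was the largest rise of Id3 with Esrrb (1.72 ± 0.25, adjusted p = 3.7e-06) and with both (2.72 ± 0.24, adjusted p = 6.8e-10). The start of Id3 had 24.9 ± 2.68, 23.2 ± 1.97 and 27.6 ± 2.55 CPM. Its difference between the 2 groups with Esrrb was 0.25 ± 0.12 (adjusted p = 0.11), with an adjusted p of 0.039 under the replicate block and 0.31 (adjusted p = 0.049) without NanogKO:Esrrb:Nanog replicate 3.

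**Figure D3:**
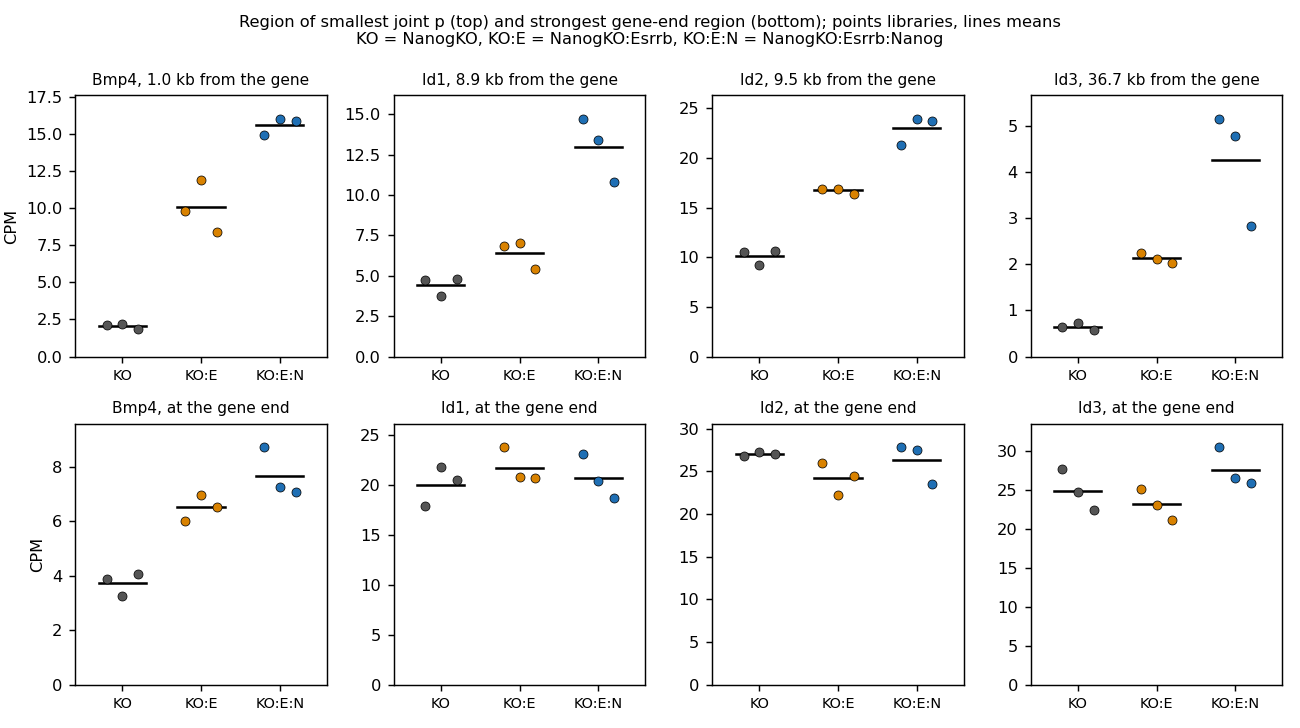
CPM (y axis, from 0) in each of the 9 libraries for Bmp4, Id1, Id2 and Id3: the region with the smallest p over the 3 groups (top) and the gene-end region with most counts (bottom), with lines at group means. The top regions were picked for their difference between the groups, so their separation is no result and sets no contrast with the bottom panels. The gene-end regions of Id1, Id2 and Id3 do not separate the 3 groups, and that of Bmp4 rises from 3.73 to 7.68 CPM.

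Smad7 encodes an inhibitory SMAD that blocks receptors of the whole superfamily, and it had the broadest rise of the 9 genes by number of regions. Of its 26 regions, 16 rose and 2 fell with Esrrb, 23 rose and 1 fell with both factors, and 17 were higher with both than with Esrrb alone. One fall with Esrrb was lost without NanogKO replicate 2, NanogKO replicate 3 or any NanogKO:Esrrb library, leaving 1. Summed, Smad7 had 164, 169.6 and 163 CPM in NanogKO, 226, 257 and 211 for NanogKO:Esrrb and 314, 325 and 320.2 for NanogKO:Esrrb:Nanog. The groups were separated in that order, with log2 fold changes of 0.48 ± 0.06 (edgeR adjusted p = 1.1e-05), 0.95 ± 0.06 (adjusted p = 1.8e-09) and 0.47 ± 0.06 (adjusted p = 0.00015). The group means rose over the 3 groups in 22 of the 26 regions, with no share over all regions computed for that order.

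The Smad7 region with the largest rise with both factors against NanogKO lay 21.9 kb below the gene, at chr18:75344854-75345450. It had 1.93, 2.55 and 2.51 CPM in NanogKO, 7.99, 10.0 and 7.15 for NanogKO:Esrrb and 18.5, 18.5 and 21.3 for NanogKO:Esrrb:Nanog, in 3 separate bands. The steps were 1.84 ± 0.16 with Esrrb (edgeR adjusted p = 8.8e-10), 3.05 ± 0.16 with both (adjusted p = 6e-14) and 1.21 ± 0.14 between them (adjusted p = 1.5e-06). Regions farther out differed in where their main step lay. At 38.9 kb, chr18:75327976-75328492 had 1.54, 1.29 and 1.44 CPM in NanogKO, 7.51, 11.6 and 6.25 for NanogKO:Esrrb and 9.66, 9.89 and 13.5 for NanogKO:Esrrb:Nanog, so that the last 2 groups overlapped (0.39 ± 0.18, adjusted p = 0.11, and 0.68 with adjusted p = 0.0064 without NanogKO:Esrrb replicate 2). At 36.2 kb, chr18:75330976-75331173 had 1.24, 1.25 and 1.20 CPM, 2.76, 3.63 and 2.57 CPM, and 9.81, 8.86 and 8.96 CPM, with the gene's largest step between the groups with Esrrb, 1.62 ± 0.16 (adjusted p = 1.8e-07).

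Inside Smad7, 5 regions between chr18:75378574 and chr18:75388785 rose in all 3 comparisons, the first from 1.46 ± 0.329 to 4.83 ± 0.784 and 10.9 ± 1.77 CPM. The gene-end region chr18:75366342-75367757 had 51.9, 46.3 and 41.7 CPM in NanogKO, 55.0, 46.9 and 46.7 for NanogKO:Esrrb and 75.0, 69.4 and 55.0 for NanogKO:Esrrb:Nanog. It was not called with Esrrb alone (0.09 ± 0.12, edgeR adjusted p = 0.62) and rose with both by 0.51 ± 0.12 (adjusted p = 0.0012). Its step from Esrrb alone, 0.42 ± 0.12 (adjusted p = 0.014) with groups that touch at 55.0 CPM, missed the threshold without NanogKO:Esrrb replicate 2 (0.38), NanogKO:Esrrb replicate 3 (0.38), NanogKO:Esrrb:Nanog replicate 1 (0.33) or replicate 2 (0.39). A region 6.22 kb above the gene went the other way: chr18:75402155-75402393 fell from 4.30 ± 0.125 to 2.24 ± 0.360 CPM with Esrrb and 2.38 ± 0.560 CPM with both (-0.94 ± 0.19 and -0.87 ± 0.19).

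Smad6, the inhibitory SMAD more selective for BMP signals, had changes in both directions, as did regions at large. Of its 36 regions, 5 rose and 10 fell with Esrrb, 10 rose and 7 fell with both factors, and 12 were higher and 1 lower with both than with Esrrb alone. In these comparisons 13.9%, 27.8% and 33.3% were higher, against 20.0%, 24.9% and 12.6% of all regions. Called lower were 27.8%, 19.4% and 2.78%, against 17.0%, 24.4% and 12.0% of all regions. The 5 rises became 3 without NanogKO replicate 2 or NanogKO:Esrrb replicate 1, and the 12 became 7 without NanogKO:Esrrb replicate 1 and 10 without NanogKO:Esrrb:Nanog replicate 3, which also gave 3 lower regions in place of 1. Library totals without scaling factors gave 11 falls with both factors in place of 7, and 7 rises between the groups with Esrrb in place of 12. Summed, Smad6 had 258, 243 and 248 CPM in NanogKO, 223, 228 and 217 for NanogKO:Esrrb and 274, 272 and 262 for NanogKO:Esrrb:Nanog, lowest with Esrrb alone. The sum changed by -0.16 ± 0.05 with Esrrb (edgeR adjusted p = 0.021), 0.11 ± 0.05 with both (adjusted p = 0.094, and 0.044 by DESeq2) and 0.27 ± 0.05 between them (adjusted p = 0.002). The fall with Esrrb missed the threshold without NanogKO replicate 1 (-0.14), NanogKO replicate 3 (-0.17), NanogKO:Esrrb replicate 1 (-0.17) or NanogKO:Esrrb replicate 3 (-0.15). Group means were lowest with Esrrb alone in 19 of the 36 regions, again without a computed share over all regions.

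A pair of regions inside Smad6 changed in opposite directions. At chr9:63992771-63993363 the libraries had 11.0, 9.61 and 10.7 CPM in NanogKO, 1.49, 1.52 and 1.93 for NanogKO:Esrrb and 1.49, 0.939 and 1.31 for NanogKO:Esrrb:Nanog. Accessibility was high in NanogKO alone, 6.32-fold lower with Esrrb (-2.66 ± 0.18, edgeR adjusted p = 1.5e-11) and 8.22-fold lower with both (-3.04 ± 0.19, adjusted p = 8.3e-13), the largest falls among the 141 regions in those comparisons. At chr9:63971668-63972176 they had 2.27, 2.08 and 1.95 CPM, then 5.33, 6.03 and 4.40 CPM, then 11.5, 13.1 and 11.9 CPM in the same order of groups. That region rose in steps, by 1.33 ± 0.16 with Esrrb (adjusted p = 2.5e-07), 2.54 ± 0.16 with both (adjusted p = 1.2e-12) and 1.21 ± 0.15 between them (adjusted p = 2.4e-06).

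The counted region that shares 118 bases with the printed Smad6 sequence and reaches beyond it, chr9:64021920-64022177, had 15.0, 14.7 and 14.8 CPM in NanogKO, 10.8, 9.21 and 10.4 for NanogKO:Esrrb and 16.5, 12.7 and 12.9 for NanogKO:Esrrb:Nanog. Like the gene's sum it was lowest with Esrrb alone, by -0.55 ± 0.13 against NanogKO (edgeR adjusted p = 0.0011), and 0.47 ± 0.13 higher with both factors than with Esrrb alone (adjusted p = 0.0085, and 0.34 with adjusted p = 0.075 without NanogKO:Esrrb:Nanog replicate 1). Just upstream, the gene-end region with most counts, chr9:64022330-64023300, had 29.8 ± 5.97, 26.7 ± 3.54 and 30.3 ± 6.12 CPM, with overlapping groups and no call. Upstream at 20.9 kb, chr9:64042956-64043505 rose from 5.76 ± 0.982 to 8.25 ± 1.31 and 17.9 ± 1.65 CPM. The only fall between the groups with Esrrb, at chr9:63906826-63907218, was from 1.55 ± 0.351 to 0.863 ± 0.334 CPM (-0.85 ± 0.27, adjusted p = 0.024), and it was lost without NanogKO:Esrrb replicate 3 (-0.65) or NanogKO:Esrrb:Nanog replicate 1 (-0.56).

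**Figure D4:**
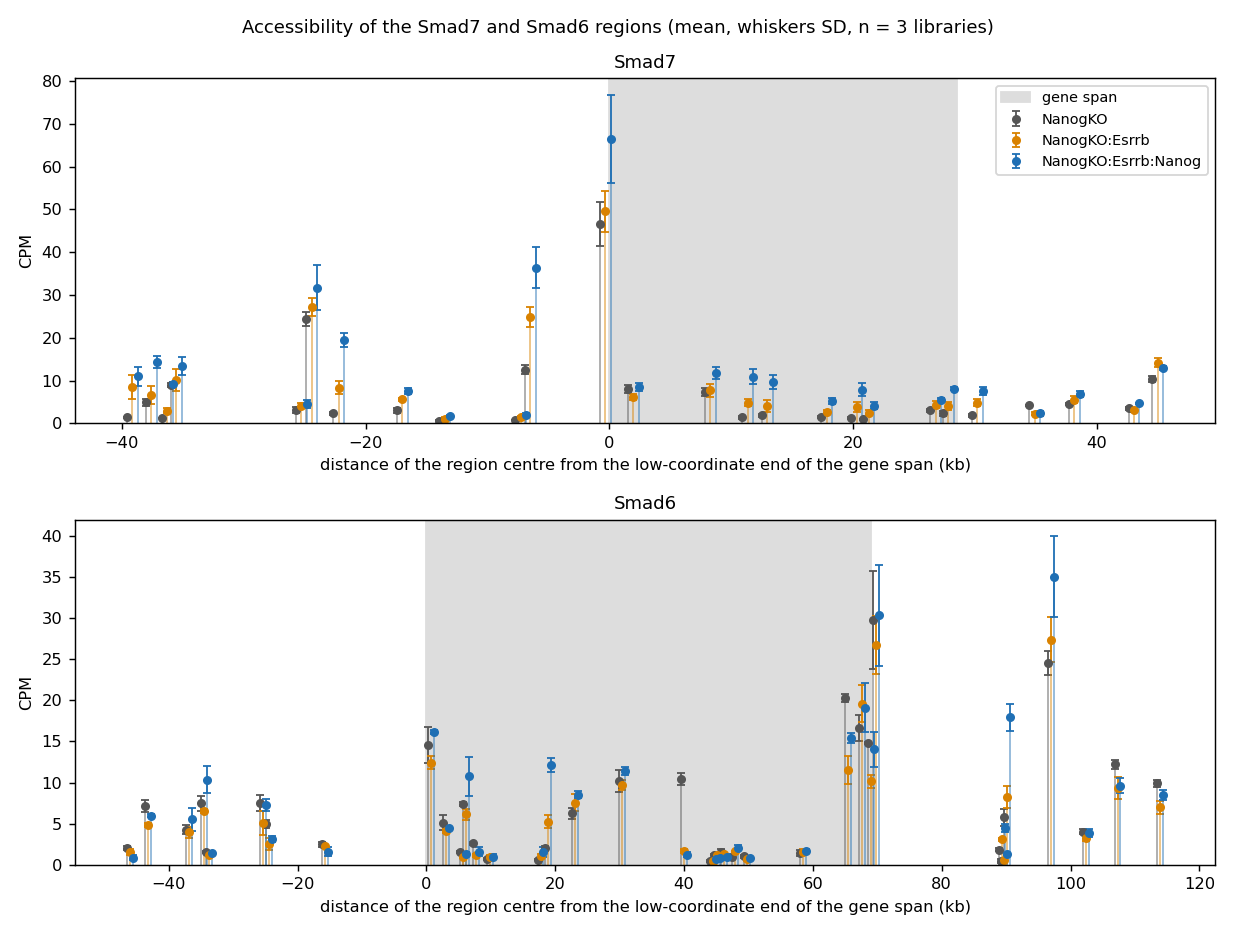
Mean CPM (y axes, whiskers SD, n = 3 libraries) of the 26 Smad7 regions and the 36 Smad6 regions by distance in kb from the low-coordinate end of the gene (x axes), with the 3 groups side by side and the gene in grey. Smad7 regions mostly step up from NanogKO to both other groups, while in Smad6 a region inside the gene drops from 10.4 to 1.65 and 1.25 CPM and another rises from 2.10 to 5.25 and 12.2 CPM.

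Bambi, the pseudoreceptor gene, rose at some of its distal regions. Of its 8 regions, 5 rose with Esrrb and 4 with both factors, and 2 were higher with both than with Esrrb alone. The 5 became 3 without NanogKO replicate 3, and the 2 became 1 without any NanogKO:Esrrb library, without NanogKO:Esrrb:Nanog replicate 2 or on library totals. At chr18:3480968-3481772, 25.2 kb below the gene, levels were 3.66, 3.25 and 4.01 CPM in NanogKO, 7.15, 5.86 and 7.74 for NanogKO:Esrrb and 10.8, 12.7 and 16.9 for NanogKO:Esrrb:Nanog. The 3 groups were separate, with steps of 0.93 ± 0.17 (edgeR adjusted p = 6.7e-05), 1.89 ± 0.17 (adjusted p = 4.2e-10) and 0.97 ± 0.16 (adjusted p = 9.7e-05). Inside the gene, chr18:3514270-3514620 went from 1.00 ± 0.339 to 2.12 ± 0.196 and 3.36 ± 0.662 CPM and was called higher against NanogKO in both groups.

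The gene-end region of Bambi, chr18:3506979-3508301, had 70.8, 54.7 and 57.1 CPM in NanogKO, 58.0, 47.6 and 55.4 for NanogKO:Esrrb and 66.8, 60.1 and 50.7 for NanogKO:Esrrb:Nanog, with all groups overlapping and no call. It holds most of the counts of the gene, whose sums were 82.1 ± 8.19, 86.5 ± 4.08 and 94.0 ± 2.50 CPM. The sum was called with both factors (0.20 ± 0.07, edgeR adjusted p = 0.025) and lost that call without NanogKO replicate 2 (0.15), NanogKO replicate 3 (0.16) or NanogKO:Esrrb:Nanog replicate 2 (0.18), and on library totals (0.14).

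Nog, which encodes the secreted BMP antagonist Noggin, had 4 regions and few changes. Its sums were 58.1 ± 1.23, 52.5 ± 3.26 and 53.7 ± 3.50 CPM, and none of the 3 differences was called (-0.15 ± 0.07, -0.11 ± 0.07 and 0.03 ± 0.07, edgeR adjusted p = 0.11, 0.18 and 0.77), although the second was called on library totals (-0.17, adjusted p = 0.049). The distal region chr11:89339859-89340479, 37.3 kb above the gene, measured 5.32, 5.09 and 6.28 CPM in NanogKO, 4.61, 5.19 and 5.01 for NanogKO:Esrrb and 3.09, 2.17 and 3.41 for NanogKO:Esrrb:Nanog. It was lowest with both factors, by -0.93 ± 0.17 against NanogKO (adjusted p = 7e-05) and -0.76 ± 0.17 against NanogKO:Esrrb (adjusted p = 0.0026), while the other 2 groups overlapped. At chr11:89298285-89298498, 2.14 kb below the gene, means were 8.35 ± 0.228, 6.19 ± 0.568 and 10.3 ± 2.53 CPM. Its fall with Esrrb, -0.43 ± 0.16 (adjusted p = 0.03), was lost without any NanogKO library (-0.42 to -0.45) or without NanogKO:Esrrb replicate 2 (-0.36), and its rise between the groups with Esrrb was 0.73 ± 0.16 (adjusted p = 0.0015). It was the only Nog region called higher in that comparison, where RLE factors and the replicate block each gave 2. With both factors it differed from NanogKO by 0.29 ± 0.15 (adjusted p = 0.12), or 0.49 (adjusted p = 0.0042) without NanogKO:Esrrb:Nanog replicate 3. The gene-end region chr11:89301386-89302506 was at 31.4 ± 0.304, 28.0 ± 2.17 and 27.0 ± 3.21 CPM and was not called, but passed with both factors on library totals (-0.31) and without NanogKO:Esrrb:Nanog replicate 1 (-0.31).

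**Figure D5:**
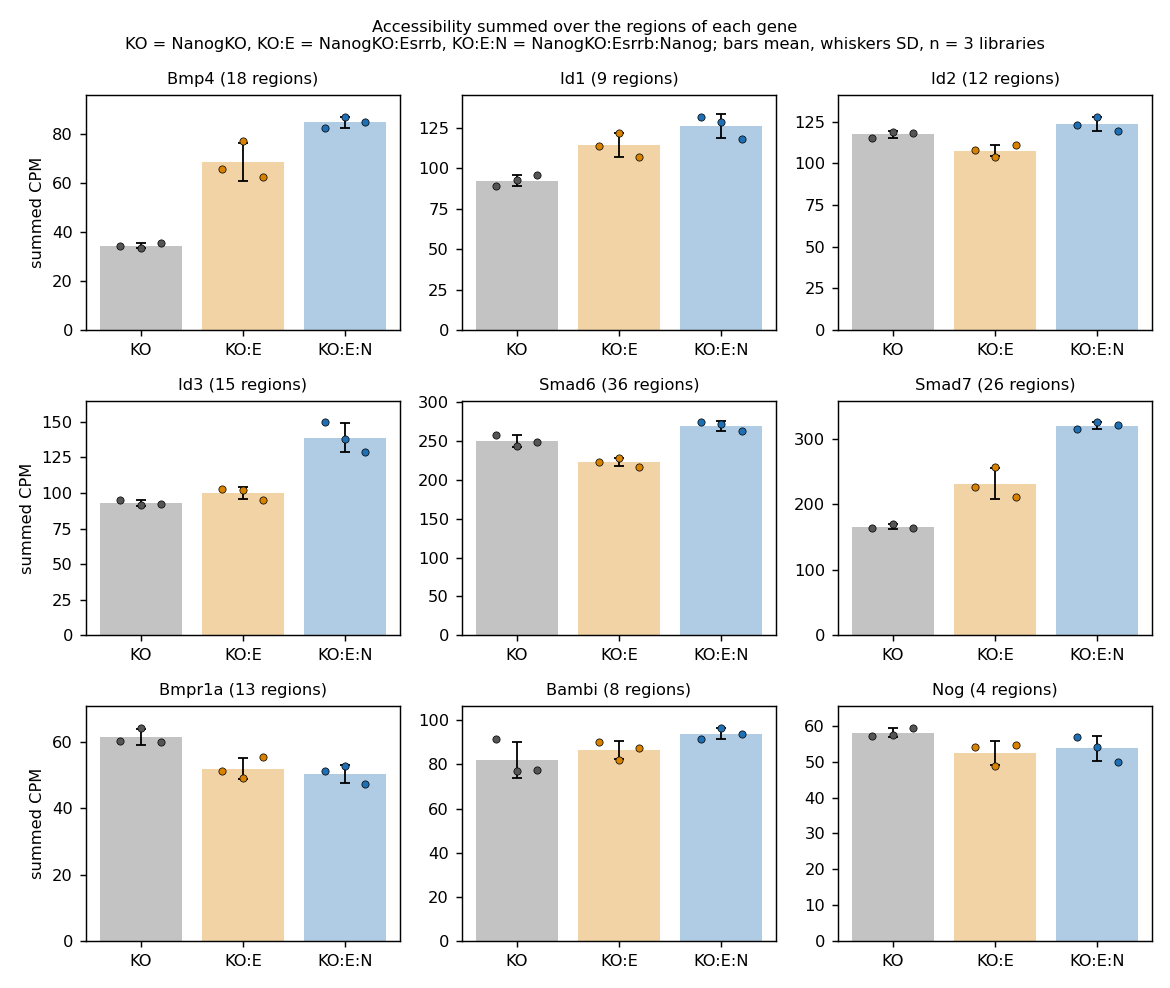
CPM summed over all regions of each of the 9 genes (y axes, from 0), with bars at group means, whiskers for the SD and points for the 3 libraries of NanogKO (KO), NanogKO:Esrrb (KO:E) and NanogKO:Esrrb:Nanog (KO:E:N). Bmp4 and Smad7 step up at each group, Id3 at the last group, Smad6 and Id2 dip in the middle group, and Bmpr1a is lower in both groups with Esrrb.

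By summed accessibility, 3 of the 9 genes were higher (Bmp4, Id1, Smad7) and 2 lower (Smad6, Bmpr1a) with Esrrb, against 17.2% higher and 16.5% lower over all gene sums. With both factors 5 were higher (Bmp4, Id1, Id3, Smad7, Bambi) and 1 lower (Bmpr1a), against 23.9% higher and 23.9% lower. Between the groups with Esrrb 5 were higher (Bmp4, Id2, Id3, Smad6, Smad7), against 10.4% higher and 10.0% lower. Only the Bmp4 sum passed the test with more than a 2-fold change, and only with both factors against NanogKO, where 3.67% of sums did. With Esrrb alone 1.88% of all sums and between the groups with Esrrb 0.791% passed that bar. A sum follows its regions with most counts, so genes such as Bambi show less change in the sum than at single regions.

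Gene ends and farther regions both held calls. Of the 19 regions within 1 kb of an end of their gene, 4 rose and 1 fell with Esrrb, 5 rose with both factors, and 6 were higher with both than with Esrrb alone. Of the other 122 regions, 45 rose and 21 fell with Esrrb, 62 rose and 19 fell with both, and 43 were higher and 4 lower between those groups. Among all tested regions, 8.41%, 20.3% and 15.5% of those within 1 kb of a gene end and 21.9%, 25.6% and 12.1% of those farther away were called higher in these comparisons, and 13.8%, 13.8% and 4.60% against 17.5%, 26.2% and 13.3% were called lower. Gene-end regions also had more counts, with a median of 14.4 CPM among these genes against 3.88 CPM farther out. Over all tested regions these medians were 11.8 and 2.52 CPM.

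The deposited peak lists, 1 per group, describe the same loci by presence. A peak overlapped 101 of the 141 regions in the NanogKO list, 128 in the NanogKO:Esrrb list and 119 in the NanogKO:Esrrb:Nanog list, and 86 regions had a peak in all 3. Peaks in both lists with Esrrb and none in the NanogKO list were found at 26 regions, of which 7 belonged to Bmp4 and 8 to Smad7. Peaks in the NanogKO list alone were found at 6 regions, 4 of them at Smad6. The lists differ in size, with 122360, 129086 and 138118 peaks in the same order of groups. The share of all regions with each pattern was not computed, so these counts cannot be set against regions at large. The peaks of the NanogKO:Esrrb:Nanog list carry names of a NanogKO:Esrrb library, and the sources used here do not say how that list was made, so every count above that uses this list is uncertain.

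Genes whose summed log2 CPM followed each gene most closely over the 9 libraries were found among 9542 genes. For Bmp4 these were Rnf220 (r = 0.996), Epn2 (0.996) and Adgrd1 (0.995), for Smad7 Mcam (0.995), Map1a (0.994) and Il6ra (0.993), and for Id1 Arsa (0.994), Ap2m1 (0.994) and Wsb2 (0.992). Il6ra encodes the interleukin 6 receptor, and its sum went from 54.7 to 82.9 and 128 CPM. For Id3 they were Tubb3 (0.988), Ppp1r9b (0.986) and Tle3 (0.984), for Bmpr1a Mrps28 (0.991), Zic1 (0.983) and Fzd4 (0.982), and for Id2 Kcnc4 (0.985), Spaca6 (0.978) and Tanc2 (0.976). Smad6 was followed by Ppp1r14a (0.977), Wdr6 (0.961) and Notch1 (0.960), Nog by Pnpla7 (0.960), Aph1c (0.954) and Numb (0.943), and Bambi by H2-Q10 (0.910), Preb (0.906) and Paxbp1 (0.901). These are Pearson correlations over the same 9 libraries in 3 groups, which describe a shared order of levels and nothing more.

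At the other genes of the pathway, in 5 lists by role, calls in either direction were near or below the background in most cases: 28.0 to 38.4% of a list's regions were called with Esrrb, 39.3 to 49.6% with both factors and 22.2 to 29.1% between those groups, against 37.0%, 49.3% and 24.6% of all regions. These shares pool rises and falls. Between the groups with Esrrb, 45 of 213 target regions were higher and 10 lower. In the list of extracellular inhibitors and binding proteins, 21 of 107 regions were higher and 3 lower. The counts were 16 and 9 for ligands, 14 and 12 for receptors, and 15 and 17 for SMADs and their regulators. Over all regions, 12.6% were higher and 12.0% lower there. The 14 other ligand genes had 86 regions, of which 19 rose and 14 fell with Esrrb, 22 rose and 14 fell with both factors, and 16 were higher and 9 lower between those groups. The sum of Bmp7, the only ligand sum among them called higher with Esrrb, rose from 147 ± 1.18 CPM to 187 ± 20.5 and 209 ± 8.61 CPM (0.34 ± 0.07 and 0.50 ± 0.07, edgeR adjusted p = 0.00057 and 7e-06). Another 5 ligand sums were called lower with Esrrb, among them Bmp8b, which fell from 73.7 ± 1.75 to 58.3 ± 3.47 and 56.3 ± 1.68 CPM. Of the 117 regions of 10 other receptor and coreceptor genes, 14 rose and 24 fell with Esrrb, 22 rose and 30 fell with both, and 14 were higher and 12 lower between those groups. The sum of Acvr1, another type I receptor gene, fell from 54.7 ± 4.92 to 40.1 ± 0.923 and 36.1 ± 3.39 CPM, and that of Acvrl1 rose from 48.2 ± 1.47 to 59.0 ± 2.90 and 75.3 ± 8.02 CPM.

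Of 131 regions at 10 genes for signalling SMADs and their regulators, 23 rose and 18 fell with Esrrb, 34 rose and 31 fell with both factors, and 15 were higher and 17 lower between those groups. Among the genes for SMADs that carry the signal to the nucleus, the sums of Smad1, Smad4 and Smad5 were not called in any comparison, with Smad1 at 73.7 ± 3.07, 73.8 ± 2.14 and 72.6 ± 2.77 CPM. The sum of Smad9 was 49.6 ± 1.58, 61.7 ± 3.72 and 55.8 ± 2.97 CPM and was called higher with Esrrb (0.31 ± 0.07, edgeR adjusted p = 0.0013) and with both (0.17 ± 0.07, adjusted p = 0.047). At 17 genes for extracellular inhibitors and binding proteins, 8 of 107 regions rose and 22 fell with Esrrb, and 21 rose and 21 fell with both. That list also holds Bmp1 and Tll1, which encode extracellular proteases. Between the groups with Esrrb, 21 of those regions were higher and 3 lower, and the sums of Chrd, Fst, Fstl1 and Fstl3 were called higher. Against NanogKO, 1 sum of that list was called higher and 5 lower with Esrrb, and 3 higher and 4 lower with both. Of 213 regions at 14 other genes known as BMP targets, 47 rose and 29 fell with Esrrb, 64 rose and 28 fell with both, and 45 were higher and 10 lower between those groups. Medians of these 5 lists lay between -0.16 and 0.13 in the 3 comparisons, against -0.01 over all regions.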

How the data were processed

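ATAC-seq was read from 1 deposited table of raw counts per region and library and from 3 deposited peak lists, 1 per group, whose peak score is the authors'. Per the submitters' processing notes the build was mm10 and the tools were Bowtie2, cutadapt, MACS2 2.2.0, SAMtools 1.4.1 and bedtools 2.26.0, beside bcl2fastq 2.19.1 and deepTools 4.4.0. The counting program, the shift of reads and the handling of duplicates are not given in the sources used here, and counting unremoved duplicates would make libraries look deeper than they are. The regions equal the merged peak lists, so a region open in any group could enter. The NanogKO:Esrrb:Nanog list carries peak names of a NanogKO:Esrrb library.

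Counts were fitted in R 4.3.3 with edgeR 4.0.16 (TMM factors, filterByExpr, quasi-likelihood F test, all 9 libraries, 6 residual degrees of freedom), and p-values were adjusted by Benjamini-Hochberg over all 157439 regions tested, 58 being filtered out. A call is an adjusted p below 0.05. Counts were also summed by nearest gene and fitted over 19083 genes. Tables were made with Python 3.11.15 and pandas 2.3.3. Scripts were tested on simulated data. Gene spans and promoters were from RefSeq GRCm38.p6.

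For each gene the text names the region with the smallest joint p, the gene-end region with the highest mean CPM (within 1 kb of an end), and the called regions with the largest rise and fall in each comparison. For each gene it also names the 3 genes most correlated with it. The genes and lists were chosen with earlier results of these data known. Alternatives were RLE factors, library totals, no filter, DESeq2 1.42.0, the replicate number as a block, the 2 compared groups alone, each library left out, a 10 kb distance and a 2-fold bar. Peak overlap was also tried at a stricter overlap, 0.5 of the region, and at or above the median score. Deviations from group means of same-numbered libraries had r of 0.117 to 0.152 for NanogKO with NanogKO:Esrrb and 0.105 to 0.146 for the 2 groups with Esrrb. By this check of the data those numbers may pair, the labels giving no shared batch. The main fit used no pairing, and the replicate number entered only as a block among the alternatives. For NanogKO with NanogKO:Esrrb:Nanog r was 0.0022 to 0.136, and no pairing was assumed.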

Additional observations from a re-analysis of the deposited data

How the results depend on the processing

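No called value changed sign under any alternative run. RLE factors, DESeq2, no filter, the replicate block and fits of the 2 compared groups alone kept every count of calls over the 141 regions and the 9 sums within 1.5 times, and of the counts per gene moved one further, 1 Nog region higher between the groups with Esrrb, to 2 with RLE factors or the block. With the replicate block all 71, 86 and 53 called regions of the 3 comparisons kept their calls, with 1, 4 and 3 further regions called, and the block changed the call of 2 named values, both given in the report. Library totals moved the median of all regions to -0.10 with both factors against NanogKO and to -0.11 against NanogKO:Esrrb, and the share of calls that were higher from 50.5% to 42.2% and from 51.1% to 33.5%. The 141 regions then had 62 higher and 25 lower, and 36 higher and 7 lower, and 2 gene sums were lower with both factors than in NanogKO; the cause was not tested. Within 10 kb, where fewer regions were counted, 28 were higher and 13 lower with Esrrb, 39 and 10 with both, and 31 and 0 between them. With the 2-fold bar the counts were 21 and 5, 43 and 5, and 13 and 1.

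Leaving out 1 library gave 39 to 47 higher and 16 to 20 lower with Esrrb, 61 to 71 and 15 to 18 with both, and 36 to 54 and 2 to 7 between them, and 1 lower gene sum with Esrrb in place of 2 in all 6 cases; the cause was not tested. Peaks at or above the median score of their list lay at 58, 66 and 54 regions, and peaks overlapping a region by 0.5 of its length or more at 95, 123 and 89.

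Signs reversed only for uncalled values. On library totals these were, with both factors against NanogKO, the gene-end regions of Bmpr1a (-0.08), Id1 (-0.06) and Smad6 (-0.07), and against NanogKO:Esrrb the Smad7 region chr18:75402155-75402393 (-0.03). Leaving out 1 library in turn gave ranges across 0 for others. With Esrrb these were the Id3 region chr4:136147790-136148080 (-0.02 to 0.17) and the Smad6 gene end (-0.28 to 0.01). With both factors against NanogKO they were the gene ends of Id2 (-0.09 to 0.03), Bmpr1a (-0.13 to 0.17, and -0.11 to 0.06 for its neighbour chr14:34501936-34502538), Bambi (-0.14 to 0.08), Id1 (-0.04 to 0.12) and Smad6 (-0.14 to 0.19), and the Bmp4 region chr14:46357246-46357400 (-0.08 to 1.43). Between the groups with Esrrb they were the sums of Bmpr1a (-0.08 to 0.01) and Nog (-0.02 to 0.09), the gene ends of Nog (-0.15 to 0.02) and Id1 (-0.16 to 0.01), and the same Smad7 region (-0.13 to 0.16). Depth limits regions with few counts most, such as the Bmp4 region with 1 to 30 counts a library.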
